A study of Rattus norvegicus with 18 samples.

Results

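Chlorothalonil-treated NRK-52E cells were compared at 72 h and at 24 h of exposure, with 3 arrays at each time, so that the comparison rests on 6 of the 18 arrays of the series. The arrays were chosen by the treatment and the time in their titles, and no expression value entered that choice. NRK-52E is a rat kidney line of proximal tubule epithelium, with the genotype given as Osborne-Mendel. Chlorothalonil (CHL) is an organochlorine fungicide. The treated cultures were confluent when 1.1 µM CHL in 0.1% DMSO was added, a dose described as the IC10 at 72 h, and the controls received 0.1% DMSO alone. The groups used here were CHL at 72 h, CHL at 24 h, DMSO at 72 h and DMSO at 24 h, with 3 arrays each. Arrays from 6 h, 3 of each treatment, entered only the estimate of the spread. The labels speak of 3 studies at each time, and 24 h and 72 h cultures were different wells, so a change over time is a difference between cultures. Whether the medium or the agent was renewed during the 72 h is not given in the sources used here.

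Chlorothalonil reacts with thiol groups, such as those of glutathione and of protein cysteines. Cells exposed to agents of that kind are known to switch on several stress programmes: NRF2 drives genes of glutathione and thioredoxin metabolism, HSF1 drives chaperones, ATF4 drives amino acid supply genes, and AP-1 factors such as FOSL1 and ATF3 are early response genes. Proliferation and the making of ribosomes are commonly held back while such programmes run, and sterol and fatty acid synthesis is set by SREBP factors that read the lipid supply of the cell. The comparison asks which of these transcripts differed between the third day and the first day of exposure.

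All values are log2 expression levels from GCRMA, the authors' background correction, normalization and summary of the arrays. One unit is a 2-fold difference. Where none of a group's 3 arrays exceeded log2 4, the probe set was taken as not above background there, and folds against such a group are given as lower bounds. Of 9148 genes tested with limma, 3616 were higher and 3050 were lower in CHL at 72 h than in CHL at 24 h at a Benjamini-Hochberg adjusted p under 0.05, which is 72.9% of genes called, 39.5% higher and 33.3% lower. Among those, 1148 were higher and 776 lower by at least 2-fold. The median change over all genes tested was 0.057. In 6470 of the called genes the 3 arrays at 72 h did not overlap the 3 at 24 h, while 75.6% of all genes tested showed no overlap. Because so large a share of genes passed, each count of list members below is to be read against these percentages, and the size of a change carries more than its call. When the arrays were scaled to their spiked poly-A control transcripts, 2119 genes were higher and 806 lower, so that 72.4% of the calls were higher in place of 54.2%, and the median over all genes was 0.24.

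Arrays of one group correlated at 0.992 to 0.998 over the 9148 genes tested. CHL arrays at 72 h correlated with CHL arrays at 24 h at 0.919 to 0.933, with DMSO arrays at 72 h at 0.947 to 0.953 and with DMSO arrays at 24 h at 0.950 to 0.955. The spiked poly-A controls averaged 10.87 at 72 h and 11.05 at 24 h (exact permutation test, two-sided, p = 0.5, n = 3 each). They spanned 10.72 to 11.11 in CHL at 72 h and 10.79 to 11.36 in CHL at 24 h. In DMSO they spanned 10.12 to 10.34 at 72 h and 9.17 to 10.51 at 24 h. Scaling to these controls carries their spread between arrays into every gene. The difference between the 3′ and 5′ probe sets of beta-actin, a measure of RNA integrity and labelling, was 1.66 to 1.81 in CHL at 72 h, against 1.03 to 1.16 in CHL at 24 h (p = 0.1, the smallest an exact test of 3 against 3 allows). It was 1.51 to 2.02 in DMSO at 72 h and 1.23 to 1.32 in DMSO at 24 h, and its part in the changes below was not tested. Of 46 proximal tubule markers, 40 were on the array, and 5 were above log2 4 in all arrays of CHL at 72 h, against 6 in CHL at 24 h. Slc4a4, Enpep, Mme, Ggt1 and Gatm were the 5, whereas the endocytic receptor genes Lrp2 and Cubn were not among them, so the labelled cell type showed only part of the tubule marker set. None of 14 distal nephron markers was above log2 4. Of 13 leukocyte markers on the array, Cd68 and Cd14 alone were above it in CHL cultures. In bulk RNA, fewer cells of a type and less RNA per cell cannot be told apart.

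Among the 12 genes with the largest rise, Col8a2, which encodes a chain of collagen VIII, was at 10.16, 10.33 and 10.15 at 72 h, against 3.82, 3.59 and 4.13 at 24 h, a log2 change of 6.37 ± 0.34 (SE, adjusted p = 4.93e-10). Col1a2, a chain of collagen I, was at 7.89, 8.40 and 8.40 at 72 h, against 3.59, 3.45 and 2.97 at 24 h, which is at least 18.7-fold higher (adjusted p = 2.94e-08). Ptn, which encodes the heparin-binding growth factor pleiotrophin, was at least 21.2-fold higher (adjusted p = 2.56e-10). Every 72 h array of these 3 genes lay above every 24 h array, which the choice of the 12 required. The 24 h arrays of Col1a2 and Ptn were not above background. Tmem176a and Tmem176b, neighbouring genes for membrane proteins, changed by 6.35 and 5.92. Eln, which encodes elastin, changed by 4.64, although a second probe set of Eln gave 0.63. In DMSO cultures Ptn rose by 5.23, Col1a2 by 4.69, Eln by 4.26, Tmem176a by 4.15, Tmem176b by 3.71 and Col8a2 by 2.89. The fitted change in CHL minus that in DMSO was 0.21, 0.20 and 0.39 for Ptn, Col1a2 and Eln (limma, adjusted p = 0.673, 0.773 and 0.375). For Ptn and Col1a2 it rests in part on 24 h readings at background. On second probe sets Col1a2 rose by 3.73 in CHL and 5.13 in DMSO, a difference of -1.40. The second probe set of Eln rose by 2.84 in DMSO, a difference of -2.22, so equal rises in the 2 treatments are not shown. The fitted difference was 3.47 for Col8a2 and 2.20 for Tmem176a and Tmem176b. Each of these genes was lower in CHL than in DMSO at 72 h. The remaining genes of the 12 were Olfml2a, Selenbp1, Prickle2, Hacd4, Adgrb2 and Cd68. Cd68, which encodes a glycoprotein of lysosomes and is used as a macrophage marker, was at 9.52, 9.61 and 9.23 at 72 h, against 4.46, 5.63 and 5.00 at 24 h. Its change was 4.42 ± 0.28 (SE, adjusted p = 2.47e-09). The general leukocyte marker Ptprc was not above background in any CHL group. Cd14, the other leukocyte marker above log2 4 in CHL cultures, was lower at 72 h, with a mean of 11.32 against 11.85 at 24 h.

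Of the 12 genes with the largest fall, 8 were not above background in CHL at 72 h. Ccl2, which encodes a chemokine that draws monocytes, was at 2.56, 2.53 and 2.99 at 72 h, against 7.46, 7.76 and 7.69 at 24 h, at least 12.4-fold lower (adjusted p = 1.57e-11). Hspa1a, the stress-inducible cytosolic HSP70, was at 4.53, 6.05 and 5.76 at 72 h, against 10.77, 10.09 and 10.11 at 24 h, a log2 change of -4.87 ± 0.33 (SE, adjusted p = 5.42e-09). Hist4h4, a histone H4 gene, was at 2.29, 2.37 and 2.20 at 72 h, against 8.67, 7.79 and 8.19 at 24 h, at least 18.6-fold lower (adjusted p = 6.25e-13). That the arrays of the 2 times did not overlap was a condition for entry into the 12. In DMSO cultures Ccl2 and Hspa1a were not above background at either time, with group means of 2.47 at 72 h and 2.52 at 24 h for Ccl2 and of 2.05 and 2.08 for Hspa1a. H3c1, a histone H3 gene, changed by -4.48. Sdcbp2, Cym, Ppfibp2, Adcy3, Mpped1 and Siae were likewise above background in CHL at 24 h and not in CHL at 72 h, with lower bounds of 6.37-fold (Mpped1) to 12.5-fold (Sdcbp2). Col14a1 changed by -4.89, although its second probe set gave -1.16, and Poteml2 changed by -4.64. Some of these genes also fell in DMSO cultures. There Col14a1 changed by -1.99 and H3c1 by -1.22, and Poteml2 was at least 45.5-fold lower at 72 h than at 24 h.

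**Figure D1:**
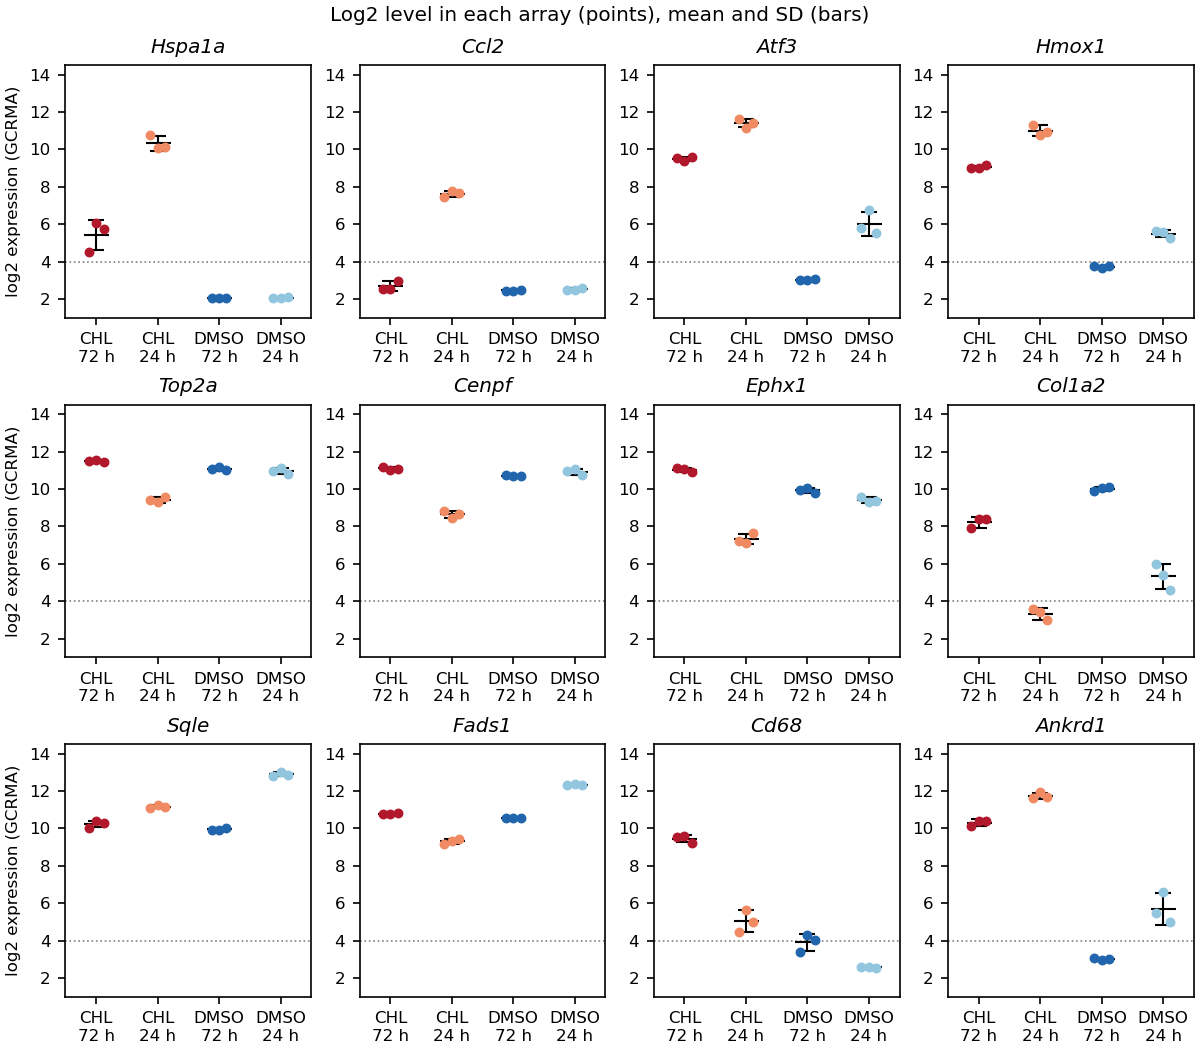
Log2 level (y axis, GCRMA) of 12 genes in each of the 3 arrays of CHL at 72 h, CHL at 24 h, DMSO at 72 h and DMSO at 24 h (x axis); points are arrays, horizontal bars are group means with SD, and the dotted line marks log2 4. Hspa1a, Ccl2, Atf3 and Hmox1 were lower in CHL at 72 h than in CHL at 24 h, and Top2a, Cenpf, Ephx1, Col1a2 and Cd68 were higher. Hspa1a, Atf3, Hmox1 and Ankrd1 in CHL at 72 h still lay above both DMSO groups, as did Cd68.

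The early response genes were mostly lower at 72 h. Of 38 listed genes, 33 were tested, and 19 were lower and 7 higher (3 with poly-A scaling), with a median change of -0.77. Fosl1, which encodes the AP-1 subunit FRA-1, was at 4.33, 5.20 and 6.13 at 72 h, against 8.99, 8.94 and 8.74 at 24 h, a change of -3.67 ± 0.45 (SE, adjusted p = 3.29e-06). Atf3, a stress-induced repressor of the same family, was at 9.55, 9.38 and 9.59 at 72 h, against 11.62, 11.17 and 11.44 at 24 h, a change of -1.90 ± 0.23 (SE, adjusted p = 3.17e-06). The arrays of the 2 times did not overlap in either gene. The genes for the ERK phosphatases Dusp6 and Dusp5 changed by -2.92 and -1.91, Egr1 by -1.70, Myc by -1.57 and Junb by -1.57. Nr4a3, an orphan nuclear receptor, was at least 2.1-fold lower, and its second probe set gave -0.19 (adjusted p = 0.319). The 7 higher members were Klf10, Nr4a2, Spry4, Ccn1, Nfil3, Srf and Ier5, among which Nr4a2, Spry4 and Ier5 changed by 0.92, 0.64 and 0.22.

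The genes under ATF4 were mostly lower. Of 45 listed, 39 were tested, of which 33 were lower and 3 higher, with a median of -1.06. Slc7a11, the cystine importer that supplies glutathione synthesis, was at 3.18, 3.35 and 3.02 at 72 h, against 7.23, 7.12 and 7.38 at 24 h, at least 9.45-fold lower (adjusted p = 6.78e-12). The 3 arrays at 72 h were not above background, and none reached the 24 h arrays. Slc7a5, an importer of large neutral amino acids, changed by -2.09. The serine synthesis genes Psph, Psat1 and Phgdh changed by -1.83, -1.82 and -1.47, the stress factor Ddit3 (CHOP) by -1.19, and the tRNA synthetase genes Cars1, Yars1, Aars1 and Tars1 by -2.05, -1.43, -1.39 and -1.09. The median of the same genes over that time in DMSO cultures was -1.02, close in size to that in CHL cultures, and the change in CHL minus the change in DMSO had a median of -0.063, with 9 genes higher and 17 lower. For that difference of changes, 57.6% of all genes tested were called, 27.9% higher and 29.8% lower.

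NRF2 targets held both directions. Of 51 listed, 35 were tested, of which 20 were lower (9 with poly-A scaling) and 10 higher (median -0.44). Over the same time the list's median was -0.34 in DMSO cultures, and the difference of changes had a median of 0.041. In that difference 11 members were higher and 12 lower. Hmox1, the haem-degrading oxygenase, was at 8.99, 8.99 and 9.14 at 72 h, against 11.33, 10.75 and 10.95 at 24 h, a change of -1.97 ± 0.14 (SE, adjusted p = 7.31e-09). Among genes of the thioredoxin and glutathione systems, Srxn1 (sulfiredoxin) changed by -1.28 (-3.78 on its second probe set), Txnrd1 (thioredoxin reductase) by -1.21 (-2.58 on its second), Gsr by -0.91, Gclc by -0.93 and Gclm by -0.46. Nqo1, a quinone reductase, changed by -0.35 (adjusted p = 0.000303), and with poly-A scaling Nqo1 and Gclm did not pass (adjusted p = 0.758 and 0.574). Akr1b8, an aldo-keto reductase, was at 10.03, 10.35 and 10.27 at 72 h, against 12.17, 12.41 and 12.05 at 24 h (adjusted p = 2.14e-10), and Ugdh changed by -0.51. The 10 that rose included other genes of detoxification. Ephx1 (microsomal epoxide hydrolase) was at 11.10, 11.05 and 10.92 at 72 h, against 7.19, 7.13 and 7.64 at 24 h, a change of 3.70 ± 0.14 (SE, adjusted p = 1.23e-11). Gsta1, Mgst1, Gsta4 and Gstm2, all glutathione transferases, changed by 2.49, 1.99, 1.46 and 1.19. Both Hmox1 and Ephx1 were without overlap between the times, in opposite directions. Glutathione transferases are a family of close copies, and probe sets may read more than one member. In DMSO cultures Gsta1 and Mgst1 changed by 2.66 and 4.31, while Ephx1 changed by 0.52.

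Chaperone and proteasome genes were lower almost throughout their lists. Of 32 heat shock genes tested of 35 listed, 29 were lower and 2 higher, with a median of -0.68, against a median of 0.029 in DMSO cultures. Hsph1, an HSP110 exchange factor, was at 12.14, 12.34 and 12.28 at 72 h, against 13.89, 13.67 and 13.56 at 24 h. Dnajb1, an HSP40, was at 11.45, 11.61 and 11.65 at 72 h, against 13.26, 12.99 and 13.07 at 24 h. Neither gene's 72 h arrays overlapped its 24 h arrays, and the changes were -1.45 and -1.54 (adjusted p = 5.51e-10 and 4.37e-10), with -2.24 on the second probe set of Hsph1. The HSP90 partners Chordc1, Stip1 and Ahsa1 changed by -1.71, -1.45 and -1.44, and the chaperonin subunits Cct2, Cct3, Cct4, Cct5, Cct7 and Cct8 by -0.98 (Cct3) to -0.35 (Cct8). Serpinh1, a collagen chaperone, and Dnajb4 were the 2 that rose, by 0.48 and 0.56. Of 37 proteasome genes tested of 39 listed, 34 were lower and 3 higher (median -0.80; DMSO -0.36). Psmd3, a subunit of the 19S cap, was at 10.06, 10.33 and 10.28 at 72 h, against 11.86, 11.75 and 11.69 at 24 h, with no overlap and a change of -1.55 (adjusted p = 1.24e-10). Psme1, Psme2 and Psma3 were the 3 that rose, by 0.52, 0.25 and 0.41, and Psme1 and Psme2 encode the interferon-inducible activator. The immunoproteasome subunits Psmb9 and Psmb8, counted in the interferon list, changed by 2.03 and by at least 11.8-fold.

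Ribosome biogenesis genes, which encode nucleolar factors and RNA polymerase I subunits, were mostly lower. Of 69 tested of 70 listed, 60 were lower and 4 higher, with a median of -0.78. The median level of the members was 9.35, 9.47 and 9.36 in the CHL arrays at 72 h, against 10.16, 10.05 and 10.02 in those at 24 h. The 72 h arrays lay below the 24 h arrays and above the DMSO arrays at either time, whose highest median was 9.05. Rrp12, an export factor of pre-ribosomes, was at 6.88, 7.06 and 7.06 at 72 h, against 9.42, 9.42 and 9.58 at 24 h, a change of -2.47 ± 0.16 (SE, adjusted p = 2.36e-09) with no overlap. Mrto4, a factor in assembly of the large subunit, changed by -2.38, Polr1e, a polymerase I subunit, by -1.77, and Fbl, which encodes fibrillarin, by -1.19. In DMSO cultures the list's median was 0.13, and 60 members were lower and 1 higher in the difference of changes. Against DMSO at 24 h, 68 members were higher in CHL and 0 lower, with a median of 1.31. Over all genes tested 39.1% were higher and 31.1% lower in that comparison. The cytosolic ribosomal protein genes themselves moved little: 13 of 40 tested were higher and 2 lower, with a median of 0.071, and 8 were higher when each array was centred on its median. Rpl28 was the exception in size, at least 2.09-fold lower. With scaling to the poly-A controls, 10 heat shock, 15 proteasome and 25 ribosome biogenesis genes passed as lower, and their medians stayed negative.

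**Figure D2:**
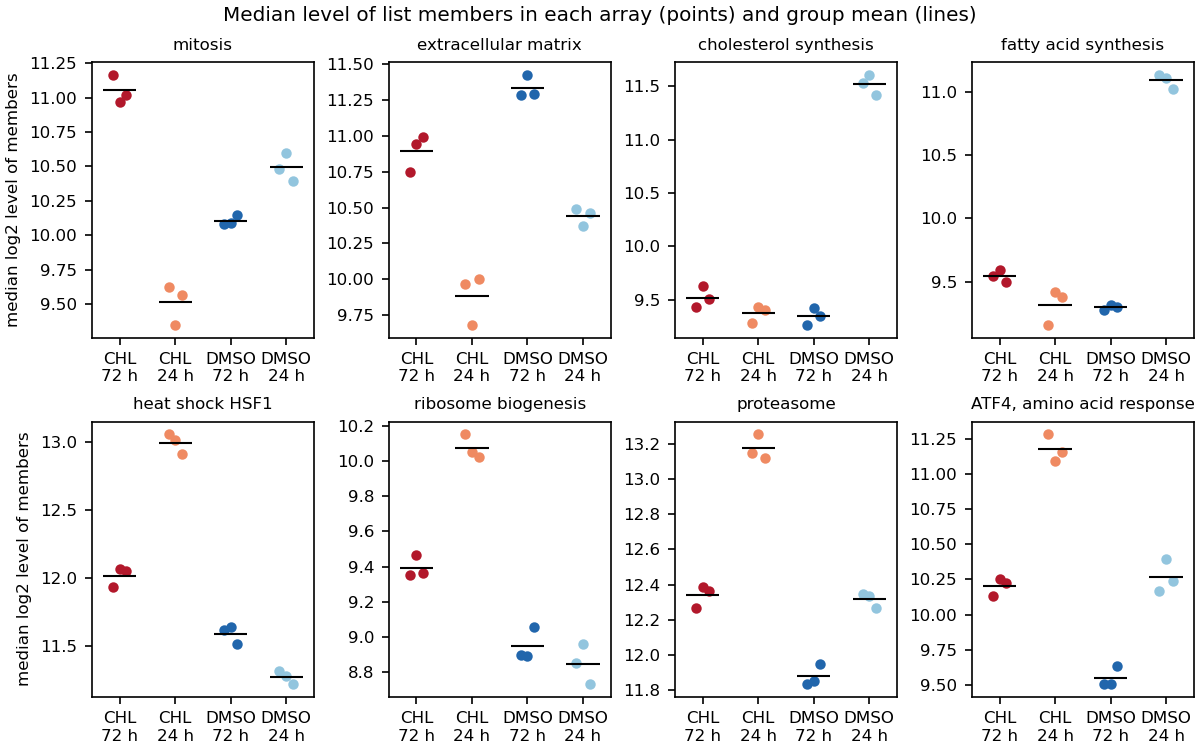
Median log2 level of the tested members (y axis) of 8 gene lists in each array of CHL at 72 h, CHL at 24 h, DMSO at 72 h and DMSO at 24 h (x axis); points are arrays and lines are group means, and the y axes differ between panels. In the heat shock, ribosome biogenesis, proteasome and ATF4 lists the CHL arrays at 72 h lay below those at 24 h, and in the mitosis and extracellular matrix lists they lay above.

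Mitosis genes showed the opposite pattern. Of 58 tested of 71 listed, 53 were higher at 72 h and 2 lower, with a median of 1.19, and the median level of the members was 11.17, 10.97 and 11.02 in the CHL arrays at 72 h, against 9.63, 9.35 and 9.57 in those at 24 h. Top2a, which encodes topoisomerase II alpha, was at 11.51, 11.54 and 11.44 at 72 h, against 9.39, 9.29 and 9.59 at 24 h, a change of 2.08 ± 0.09 (SE, adjusted p = 5.72e-11). Cenpf, a kinetochore protein, was at 11.18, 11.03 and 11.06 at 72 h, against 8.82, 8.46 and 8.67 at 24 h, a change of 2.44 ± 0.10 (SE, adjusted p = 3.18e-11). Every 72 h array of both genes lay above every 24 h array. Spindle genes Aspm, Nusap1, Kif11 and Kif15 changed by 2.17, 2.15, 1.48 and 2.15, the mitotic kinases Cdk1, Plk1, Aurka and Aurkb by 1.68, 1.37, 0.81 and 0.69, and cyclins Ccnb1 and Ccnb2 by 0.91 and 1.56. Mki67, a marker of cycling cells, changed by 0.42 (adjusted p = 0.00116, or 0.156 with poly-A scaling). Cenpk and Cenpn, both of centromere complexes, were the 2 that fell, with -0.53 and -0.44. In DMSO cultures the list's median was -0.25, and the difference of changes had 52 members higher and 1 lower, with a median of 1.40. Set against DMSO at the same time, the median was 0.83 at 72 h and -0.53 at 24 h, so the list's median in CHL cultures lay below DMSO on the first day and above it on the third.

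Promoter windows are shown for 5 called members of the lists that fell or rose together, chosen after values were seen as those with the smallest p among members whose window holds the motif (2 for mitosis, 1 each for the other lists). Windows run 250 bases before to 50 bases after the gene start and come from RefSeq on GRCr8, and 7745 of the 9148 genes tested had one. Capitals mark the motif letters, read on both strands. For Aspm (chr13:53625334-53625633, + strand) and Nusap1 (chr3:127057045-127057344, + strand) they mark the cell cycle homology region, TTTGAA, and the CCAAT box, CCAAT, which reads ATTGG on the other strand.
Aspm: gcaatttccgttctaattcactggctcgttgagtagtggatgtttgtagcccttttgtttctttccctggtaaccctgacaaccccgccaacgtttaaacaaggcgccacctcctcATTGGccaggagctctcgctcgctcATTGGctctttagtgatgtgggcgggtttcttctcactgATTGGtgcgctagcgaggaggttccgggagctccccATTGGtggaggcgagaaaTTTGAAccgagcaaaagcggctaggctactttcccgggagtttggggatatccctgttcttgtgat
Nusap1: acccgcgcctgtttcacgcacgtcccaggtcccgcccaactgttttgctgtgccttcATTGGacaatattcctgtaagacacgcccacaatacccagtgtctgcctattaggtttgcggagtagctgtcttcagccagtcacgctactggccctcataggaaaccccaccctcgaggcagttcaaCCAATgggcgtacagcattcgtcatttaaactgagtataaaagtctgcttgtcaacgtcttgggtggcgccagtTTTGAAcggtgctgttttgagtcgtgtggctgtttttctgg
For Chordc1 (chr8:23650571-23650870, + strand) they mark the heat shock element, read as GAA, 2 free bases, TTC, 2 free bases and GAA, whose 3 matches overlap. For Yars1 (chr5:146819913-146820212, + strand) they mark the amino acid response core TGATGCAA, and for Rrp12 (chr1:250655269-250655568, - strand) the E-box CACGTG.
Chordc1: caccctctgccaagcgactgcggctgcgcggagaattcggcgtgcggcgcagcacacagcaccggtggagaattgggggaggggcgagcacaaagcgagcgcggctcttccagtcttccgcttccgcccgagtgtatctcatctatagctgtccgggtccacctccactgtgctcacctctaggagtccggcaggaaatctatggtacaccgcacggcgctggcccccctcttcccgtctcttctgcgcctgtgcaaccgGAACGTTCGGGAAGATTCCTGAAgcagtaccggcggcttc
Yars1: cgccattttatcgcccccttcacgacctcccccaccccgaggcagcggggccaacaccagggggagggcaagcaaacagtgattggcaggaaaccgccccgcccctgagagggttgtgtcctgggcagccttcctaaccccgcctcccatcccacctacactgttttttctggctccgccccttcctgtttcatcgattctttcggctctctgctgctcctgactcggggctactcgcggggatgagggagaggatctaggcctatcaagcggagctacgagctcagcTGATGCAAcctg
Rrp12: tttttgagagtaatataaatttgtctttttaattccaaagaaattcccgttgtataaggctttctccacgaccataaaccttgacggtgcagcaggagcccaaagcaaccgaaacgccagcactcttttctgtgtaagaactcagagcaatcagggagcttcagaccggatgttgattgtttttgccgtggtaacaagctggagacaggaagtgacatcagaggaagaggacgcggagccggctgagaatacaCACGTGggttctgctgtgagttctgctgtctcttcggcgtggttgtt

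The cell cycle homology region stood in 33 of 51 mitosis promoters (64.7%), against 11.2% of the promoters of all genes tested and 18.1% of 27457 rat promoters. The CCAAT box stood in 40 of the 51 (78.4%), against 38.9% of genes tested and 37.7% of all promoters, and the shares were similar or higher in lists that did not share the rise, with 20 of 21 promoters of the endoplasmic reticulum stress list (95.2%), 10 of 12 tubulin and stathmin promoters (83.3%) and 14 of 18 cholesterol synthesis promoters (77.8%). The heat shock element was found in 7 of 29 promoters of heat shock genes (24.1%), against 0.452% of genes tested and 0.736% of all promoters. The amino acid response core stood in 10 of 37 promoters of the ATF4 list (27.0%), against 0.594% and 0.743%. The E-box stood in 21 of 63 promoters of ribosome biogenesis genes (33.3%), against 10.2% and 6.65%. The antioxidant response element, TGAC, 3 free bases and GC, stood in 8 of 32 promoters of NRF2 targets (25.0%), against 14.7% and 12.2%. Its share was similar or higher in some other lists, with 33.3% of G1 regulators, 27.0% of the ATF4 list and 24.2% of proteasome genes. In others it was lower, such as 13.8% of heat shock genes. The AP-1 site TGAGTCA stood in 0 of 24 promoters of early response genes, against 3.27% and 4.53%. The sterol regulatory element, TCACCCC followed by AC, stood in 0 of 18 promoters of cholesterol synthesis genes, and its variant ending in AT in 1 of 18. The windows are short and the lists were put together from known biology, so a match describes the letters and not a bound site.

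Of 50 DNA replication genes tested of 57 listed, 19 were higher and 14 lower (median 0.067), shares near those of all genes tested. Without CHL replicate 3 at 72 h, 12 were higher, and without CHL replicate 1 at 24 h, 9 were lower, and with poly-A scaling 9 were higher and 4 lower. Pole, Brca1, Mcm10 and E2f1 changed by 1.27, 1.24, 1.18 and 1.18, whereas Mcm7, a helicase subunit, changed by -1.49 and Ccne1, the cyclin that drives entry into S phase, by -1.25. Of 23 G1 regulators tested of 30 listed, 13 were higher and 1 lower (median 0.39; 7 higher with poly-A scaling), among them the kinase inhibitors Cdkn2d (1.68) and Cdkn2c (1.25). Cdkn1a, which encodes the inhibitor p21, was at 12.50, 12.78 and 12.77 at 72 h, against 12.60, 12.59 and 12.51 at 24 h (change 0.11, adjusted p = 0.274), and its second probe set gave -1.50. Of 19 p53 targets tested of 32 listed, 7 were higher and 6 lower, again near the shares of all genes tested (median 0.10, which turned negative when the probe set of largest variance was taken), with 3 higher under poly-A scaling. Mdm2, the ligase that degrades p53, changed by -1.13 (-0.51 on its second probe set) and Zmat3 by 1.33. Against DMSO at 72 h, where 64.3% of all genes tested were called (37.2% higher and 27% lower), 14 p53 targets were higher and 3 lower, with a median of 0.95, and Cdkn1a and Mdm2 were 1.27 and 1.48 above DMSO.

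Among the 31 lists with at least 5 genes tested, cholesterol synthesis and fatty acid synthesis had the widest gaps between the median change in CHL and that in DMSO cultures. Of 22 cholesterol synthesis genes tested of 28 listed, 14 were lower and 4 higher in CHL at 72 h than in CHL at 24 h, with a median of -0.51, whereas the median in DMSO cultures over the same time was -2.98. Sqle, squalene epoxidase, was in CHL cultures at 10.04, 10.37 and 10.26 at 72 h, against 11.10, 11.26 and 11.15 at 24 h, with a change of -0.95 ± 0.081 (SE, adjusted p = 5.91e-08, or 0.0648 with poly-A scaling) and no overlap. In DMSO cultures Sqle was at 9.93, 9.92 and 10.00 at 72 h, against 12.82, 13.02 and 12.86 at 24 h, a change of -2.95. Idi1, an isomerase early in the pathway, changed by -1.11 in CHL and by -3.77 in DMSO, and Cyp51, which acts on lanosterol, by -1.14 and -3.35. Stard4, a sterol carrier, Fdft1 (squalene synthase), Dhcr7 and Sc5d rose in CHL cultures, with 1.03, 0.68, 0.61 and 0.43, and changed by -1.91, -1.91, -3.16 and -1.70 in DMSO cultures. The difference of changes was higher for 20 of the 22 members, with a median of 2.52. The 2 treatments lay apart at 24 h, with a median of CHL minus DMSO of -1.79, and closer at 72 h, with 0.49. With poly-A scaling, 4 members were lower and 2 higher in CHL cultures.

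Of 18 fatty acid synthesis genes tested of 22 listed, 5 were lower and 4 higher in CHL cultures (median -0.033, which turned positive with poly-A scaling, with no filter or without CHL replicate 1 at 72 h), against a median of -1.77 in DMSO cultures. In CHL cultures Fads1, the delta-5 desaturase, was at 10.75, 10.75 and 10.82 at 72 h, against 9.18, 9.34 and 9.41 at 24 h. In DMSO cultures Fads1 was at 10.56, 10.54 and 10.58 at 72 h, against 12.31, 12.36 and 12.34 at 24 h. Without overlap in either treatment, it was higher at 72 h in CHL (1.46, adjusted p = 2.01e-10) and lower at 72 h in DMSO (-1.77). The difference of changes for Fads1 was 3.24 (adjusted p = 8.04e-12). Fasn, the fatty acid synthase, was in CHL cultures at 9.78, 9.57 and 9.53 at 72 h, against 9.46, 9.57 and 9.52 at 24 h (change 0.11, adjusted p = 0.208), and its second probe set gave 1.04 (adjusted p = 0.00119). In DMSO cultures Fasn changed by -2.27. Among fatty acid oxidation genes, 12 of 23 tested were higher and 8 lower (median 0.24; with poly-A scaling 7 passed, as higher). Pdk4, the kinase that inhibits pyruvate dehydrogenase, was at 10.18, 10.14 and 10.05 at 72 h, against 5.92, 6.16 and 6.36 at 24 h, a change of 3.98 ± 0.20 (SE, adjusted p = 2.13e-10) without overlap, and changed by 1.73 in DMSO cultures.

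**Figure D3:**
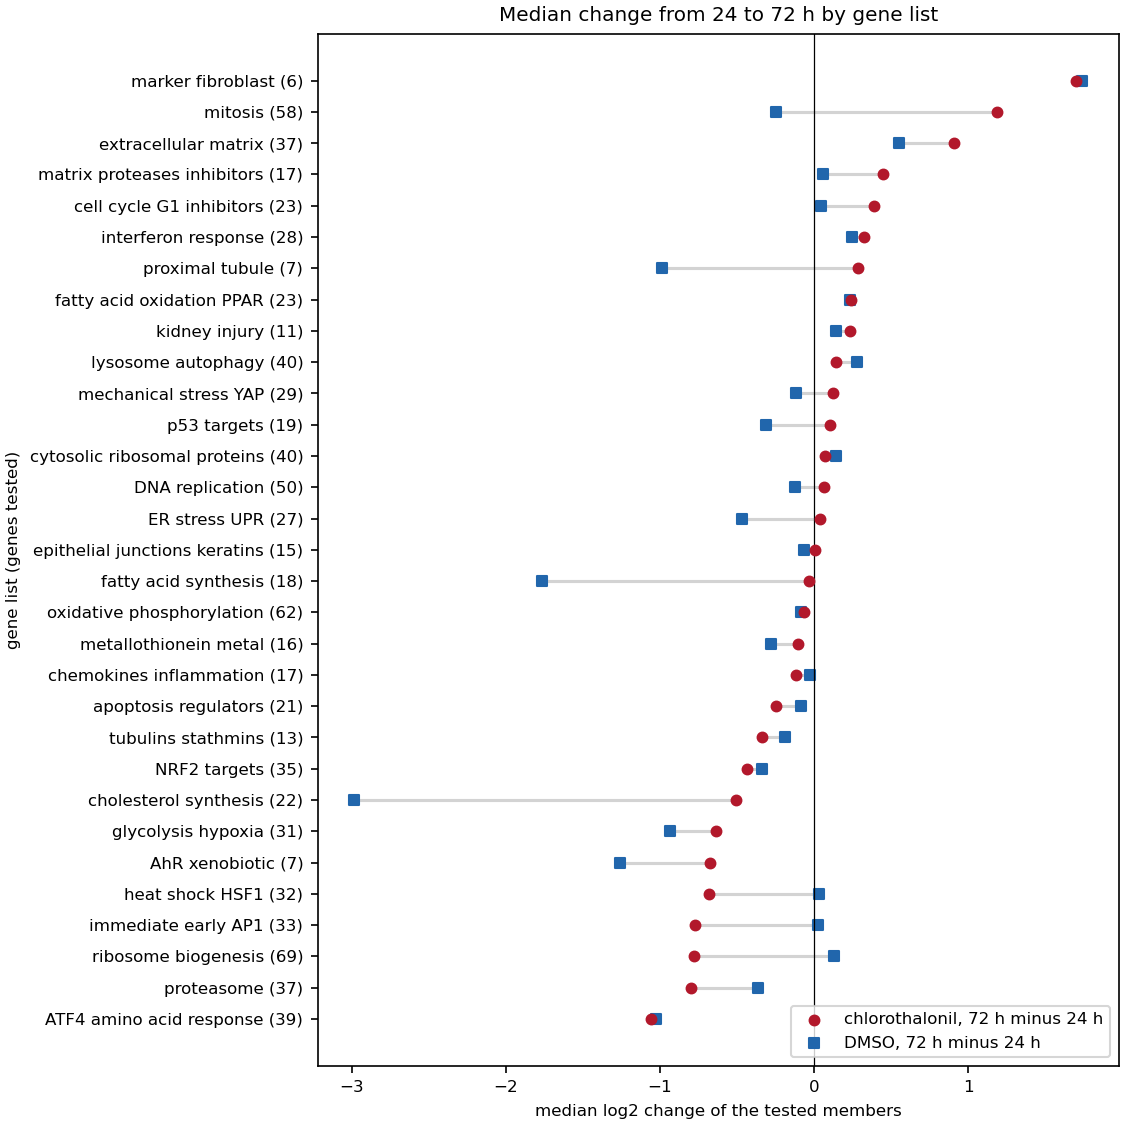
Median log2 change, 72 h minus 24 h (x axis), of the tested members of 31 gene lists (y axis, number of genes tested in brackets) in CHL cultures (circles) and in DMSO cultures (squares), joined by a grey line. The widest gap was that of cholesterol synthesis, at -0.51 in CHL and -2.98 in DMSO, and mitosis lay at 1.19 in CHL and -0.25 in DMSO.

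Glycolysis and hypoxia genes were mostly lower at 72 h. In CHL cultures 20 of 31 tested were lower and 6 higher (median -0.63; 9 lower and 3 higher with poly-A scaling), and the median in DMSO cultures was -0.94. Hk2, the hexokinase at the head of glycolysis, was at 3.26, 3.21 and 2.89 at 72 h, against 6.99, 7.07 and 6.80 at 24 h, at least 7.74-fold lower (adjusted p = 9.4e-08) and not above background at 72 h. The glucose transporter Slc2a1, the enzymes Eno1 and Tpi1 and the mitophagy receptor Bnip3 changed by -1.38, -1.34, -1.16 and -1.16 in CHL and by -1.77, -1.11, -1.28 and -1.72 in DMSO. Aldoc, an aldolase, stood apart: in CHL cultures it was at 4.85, 5.95 and 5.85 at 72 h, against 5.01, 5.44 and 4.84 at 24 h. The CHL groups overlapped (change 0.45, adjusted p = 0.206, or 0.81 and 0.0265 without CHL replicate 1 at 72 h), and the change in DMSO cultures was -4.84. Of 62 oxidative phosphorylation genes tested, 15 were higher and 21 lower, against 39.5% higher and 33.3% lower of all genes tested. The list's median was -0.064, which turned positive with poly-A scaling, where 3 passed, as higher. Changes of the 62 spanned -0.76 (Ndufs8) to 0.83 (Ndufa6).

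Extracellular matrix genes were mostly higher at 72 h in CHL cultures, and their median was above 0 in both treatments. Of 37 tested of 54 listed, 29 were higher and 2 lower in CHL at 72 h (median 0.91, or 0.45 with no filter on low values), and the median was 0.55 in DMSO cultures. In CHL cultures Col3a1, a fibrillar collagen, was at 10.92, 11.38 and 11.34 at 72 h, against 8.83, 8.86 and 9.29 at 24 h. In DMSO cultures Col3a1 was at 14.37, 14.46 and 14.53 at 72 h, against 10.49, 10.47 and 10.64 at 24 h. Within each treatment the 72 h arrays lay above the 24 h arrays, and the change was 2.22 in CHL and 3.92 in DMSO. Mgp, an inhibitor of matrix calcification, was at least 2.73-fold higher in CHL at 72 h and changed by 4.28 in DMSO. Loxl1, a cross-linker of elastin, changed by 3.76 in CHL and was at least 16.2-fold higher at 72 h in DMSO, and Col1a1 changed by 1.18 and 2.04. The laminin chain genes Lama5 and Lamc1 and the perlecan gene Hspg2, named after their values were seen, changed by 1.97, 1.28 and 1.53 in CHL, against 0.88, 0.26 and 0.32 in DMSO (adjusted p = 0.0572 for Hspg2), with a difference of changes of 1.09, 1.01 and 1.21 (adjusted p = 3e-07, 5.52e-07 and 0.000105). The second probe set of Lamc1 gave 0.49 in CHL and -0.71 in DMSO. Lama3, another laminin chain gene, and Fbln2 fell, with -2.04 and -1.53, and the difference of changes was -0.63 for Lama3 (adjusted p = 0.0338). Set against DMSO at 72 h, 10 matrix genes were higher and 22 lower (median -0.36). Of the 12 fibroblast markers, 6 were above log2 4 in all arrays of CHL at 72 h and 5 in CHL at 24 h, and their summed level was log2 12.6 to 12.8 at 72 h, against 12.4 to 12.6 at 24 h, with Postn the brightest of them at both times. Of the 6 that were tested, 4 were higher at 72 h and 1 lower (median 1.70), and their median level was 9.13, 9.45 and 9.45 in CHL at 72 h, against 7.07, 6.75 and 7.24 in CHL at 24 h. The 4 were Col1a2, Twist1, Col3a1 and Col1a1, of which the 3 collagens are also in the matrix list, and Twist1 changed by 2.45. Postn and S100a4, the other 2, changed by -0.10 (adjusted p = 0.129) and -0.86. In DMSO cultures the median change of the 6 was 1.74. The part of fibroblast-like cells in these values was not tested.

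Proteases and their inhibitors held both directions. Of 17 tested of 30 listed, 11 were higher and 5 lower (median 0.44; 6 higher with poly-A scaling). Serpinb2, an inhibitor of plasminogen activators, was at 5.15, 4.89 and 5.28 at 72 h, against 8.73, 8.72 and 8.97 at 24 h, a change of -3.70 ± 0.12 (SE, adjusted p = 3.92e-12). Timp3, an inhibitor of metalloproteinases bound to the matrix, was at 11.09, 10.84 and 11.01 at 72 h, against 7.89, 7.64 and 7.79 at 24 h, a change of 3.21 ± 0.16 (SE, adjusted p = 2.32e-10), or 1.89 on its second probe set. Both were without overlap. Adam9, a membrane protease, and Mmp10 changed by -2.99 and -1.70, and Serpine2 and Adamts4 by 3.01 and at least 2.57-fold. In the chemokine list 6 of 17 tested were lower and 5 higher (median -0.12), against 33.3% lower and 39.5% higher of all genes tested. Among its members Ccl7 was at least 2.66-fold lower, Cxcl1 changed by -2.27, and Csf1 and the NF-kB inhibitor Tnfaip3 by 1.58 and 1.09. The interferon list had 15 higher and 4 lower of 28 tested (median 0.32). Its antigen presentation genes Tap1, Tap2, Tapbp and B2m changed by 1.23, 0.85, 0.62 and 0.57, while Mx2, Usp18 and Irf7 changed by -2.28, -1.41 and -1.08.

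Genes of the actin cytoskeleton and mechanical stress held both directions, with 14 higher and 8 lower of 29 tested (4 and 4 with poly-A scaling). Ankrd1, a target of YAP that is raised by strain, was at 10.11, 10.42 and 10.41 at 72 h, against 11.64, 11.95 and 11.66 at 24 h, a change of -1.44 ± 0.31 (SE, adjusted p = 0.000626). Nppb, which encodes the natriuretic peptide BNP, was at 8.53, 8.98 and 9.36 at 72 h, against 10.45, 10.31 and 10.40 at 24 h, a change of -1.43 ± 0.16 (SE, adjusted p = 1.48e-06). The 72 h arrays of both genes lay below the 24 h arrays. Inhba, the activin A subunit, was at least 3.79-fold lower in CHL at 72 h than at 24 h, and at least 2.76-fold higher at 72 h than at 24 h in DMSO. The second probe set of Inhba changed by -1.44 in CHL and -0.36 in DMSO, so the opposite directions rest on 1 probe set. Cnn1, a calponin of contractile cells, was at least 1.81-fold higher. Among tubulins, Tubb3 and Tuba4a were at least 3.99-fold and 1.63-fold lower.

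Epithelial and tubule genes were few above background. Of 37 junction and keratin genes listed, 15 were tested, with 5 higher and 5 lower (1 higher with poly-A scaling). Without the scaling these shares were near those of all genes tested. The tight junction gene Ocln changed by -1.45, Krt8 by -1.42 and the adhesion gene F11r by 0.95, and Sprr1a, a cornified envelope gene known as a damage marker, by -2.68. Among tubule genes, Ggt1, the brush border enzyme that breaks down glutathione, was at 5.67, 5.75 and 5.49 at 72 h, against 8.83, 8.44 and 8.47 at 24 h, a change of -2.94 ± 0.11 (SE, adjusted p = 1.84e-11) with no overlap. Slc4a4, the basolateral bicarbonate transporter, was at 9.51, 9.55 and 9.47 at 72 h, against 7.94, 7.67 and 8.07 at 24 h, a change of 1.62 ± 0.088 (SE, adjusted p = 5.49e-10), or 0.84 on its second probe set. The 72 h arrays of Slc4a4 all lay above its 24 h arrays. Ggt1 was also at least 6.5-fold lower at 72 h in DMSO cultures, and Slc4a4 changed by -0.99 there. In the endoplasmic reticulum stress list 10 were higher and 9 lower of 27 tested (3 and 2 with poly-A scaling). Without that scaling the shares were near those of all genes tested, with a median of 0.040. Xbp1 and Eif2ak3 (PERK), both sensors or effectors of that response, changed by 1.22 and 1.34, and Hspa5 (BiP) by 0.077 (adjusted p = 0.171). Of 40 lysosome and autophagy genes tested, 20 were higher and 10 lower (9 and 1 with poly-A scaling). Lipa and Gaa, both acid hydrolases, changed by 1.21 and 1.28, and the autophagy receptor Sqstm1 by -1.51 (-2.41 on its second probe set). Of 21 apoptosis regulators tested, 10 were lower and 3 higher (2 and 1 with poly-A scaling). The transferrin receptor Tfrc changed by -2.35 in CHL and -2.06 in DMSO, and the dioxin receptor Ahr by -2.15 and -2.38.

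The change in CHL cultures was set against the change in DMSO cultures, which share no arrays with it. Over DMSO, 5549 genes passed (60.7%, with 36.3% higher and 24.3% lower), and the median absolute change was 0.49 in CHL and 0.34 in DMSO. There were 1965 genes higher in both, 54.3% of those higher in CHL and 59.1% of those higher in DMSO, and 1231 lower in both, 40.4% of those lower in CHL and 55.3% of those lower in DMSO. Another 487 genes were higher in CHL and lower in DMSO, and 566 were lower in CHL and higher in DMSO. Across the 9148 genes, which are not independent replicates, the 2 changes correlated at r = 0.48 (Spearman 0.43). The difference of changes itself passed for 5273 genes, 2550 higher and 2723 lower, and for 1217 higher and 209 lower with poly-A scaling, so that 85.3% of the calls were higher in place of 48.4%. The 5 genes with the most positive difference were Ropn1l, Pimreg, Aldoc, Rnf157 and Cdkn3. Pimreg, expressed in dividing cells, was in CHL cultures at 9.79, 9.81 and 9.93 at 72 h, against 6.45, 5.51 and 6.60 at 24 h. In DMSO cultures it was at 7.98, 7.90 and 8.08 at 72 h, against 9.87, 9.95 and 9.86 at 24 h. Thus Pimreg was higher at 72 h in CHL and lower at 72 h in DMSO, with no overlap. Cdkn3, a phosphatase gene of dividing cells, had the same pattern, with changes of 2.42 in CHL and -2.14 in DMSO. The 5 with the most negative fitted difference were Hist4h4, Sdcbp2, Ppfibp2, Ccl2 and Hspa1a, which were not above background in either DMSO group and so have no order among them.

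**Figure D4:**
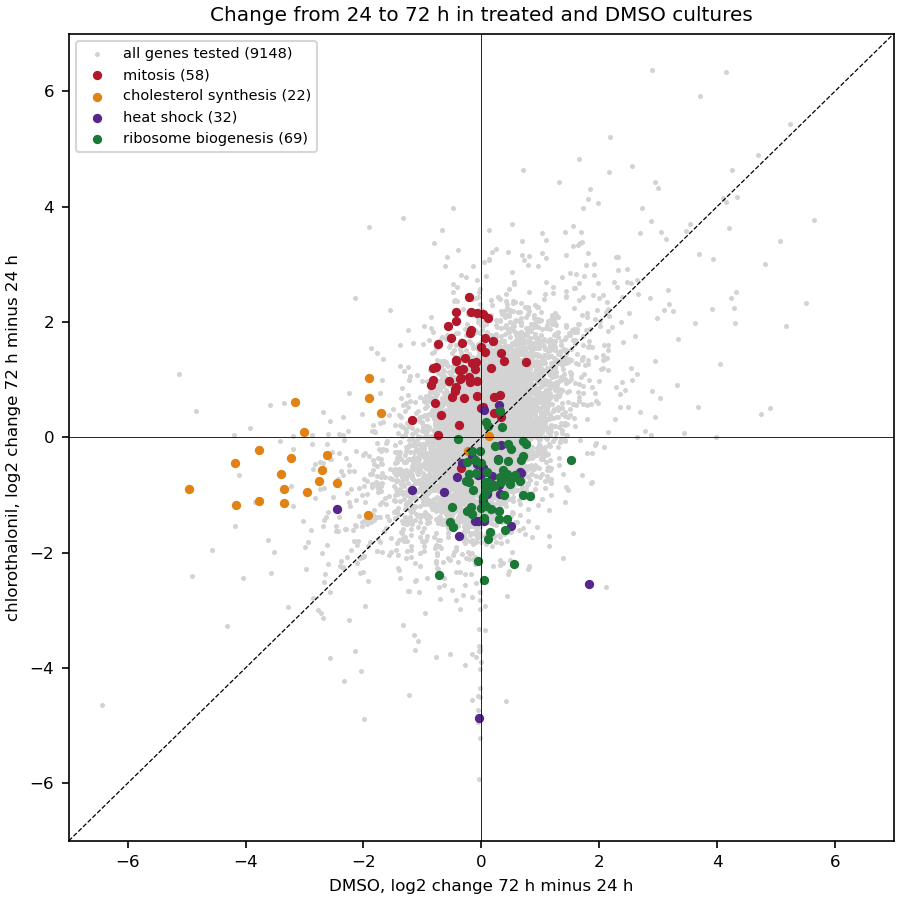
Log2 change, 72 h minus 24 h, of each of 9148 genes in CHL cultures (y axis) against DMSO cultures (x axis), with 4 gene lists coloured; the dashed line marks equal change. Mitosis genes lay above the line (median 1.19 in CHL, -0.25 in DMSO), cholesterol synthesis genes lay to the left (median -0.51 and -2.98), and most heat shock and ribosome biogenesis genes lay below.

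Atf3, Ankrd1, Hmox1, Nppb and Fosl1, which were lower at 72 h than at 24 h in CHL cultures, were still above DMSO at 72 h. The DMSO arrays at 72 h were not above background for these 5 genes. Atf3 was at least 45.5-fold higher in CHL than in DMSO at 72 h, Ankrd1 at least 79.4-fold, Hmox1 at least 32.9-fold, Nppb at least 31-fold and Fosl1, whose lowest CHL array at 72 h was just above log2 4, at least 2.33-fold. At 24 h the log2 difference of CHL from DMSO was 5.38 for Atf3, 6.05 for Ankrd1 and 5.51 for Hmox1, while Nppb was at least 83.5-fold and Fosl1 at least 29.7-fold higher. In DMSO cultures Atf3 was at 3.02, 2.99 and 3.09 at 72 h, against 5.80, 6.76 and 5.55 at 24 h, and Hmox1 was at 3.75, 3.67 and 3.78 at 72 h, against 5.66, 5.56 and 5.29 at 24 h. All 6 CHL arrays lay above all 6 DMSO arrays in both genes. By contrast, the log2 difference of CHL from DMSO was 0.0078 (adjusted p = 0.942) at 72 h and 2.04 at 24 h for Dnajb1. For Egr1 it was 0.031 (adjusted p = 0.846) at 72 h and 2.02 at 24 h. Dnajb1 does not stand for all heat shock genes. Hspa1a was still at least 2.73-fold higher in CHL than in DMSO at 72 h, where its DMSO arrays were not above background. In the heat shock list 17 genes were higher and 3 lower in CHL than in DMSO at 72 h. Slc7a11 was not above background in either treatment at 72 h. The median of the ATF4 list over DMSO was 0.79 at 72 h, with 34 genes higher and 4 lower, and that of the heat shock list was 0.24 at 72 h and 1.14 at 24 h, a time at which CHL against DMSO had 70.2% of all genes called. Cd68 was the reverse case, with a log2 difference of 5.55 from DMSO at 72 h, and at least 2.04-fold higher at 24 h. These comparisons share the CHL arrays with the change over time and are given as values.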

How the data were processed

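Per the labels' protocols, Trizol was used for extraction and 6 µg of total RNA went into biotin-labelled cRNA. The authors deposited log2 expression values of 31099 probe sets on 18 arrays, which per the submitters' processing notes come from GCRMA (version not given), and no further normalization was applied. GCRMA commonly equalises the arrays' distributions, so a shift shared by most genes would not be seen. Arrays give no read depth, and their number, 3 per group, limits the precision.

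Groups follow the titles. The labels give 3 studies per time; whether these are separate passages is not given in the sources used here, so p-values measure the spread between these samples. Gene names came from the platform annotation, updated through Entrez identifiers: 20832 probe sets had 1 gene symbol, 436 several and 9831 none. Control probe sets were left out. Probe sets above log2 4 in at least 3 arrays passed (16634), and the probe set with the highest mean stood for its gene, which left 9148 genes, of which 2598 had several probe sets. limma 3.58.1 in R 4.3.3 was fitted on all 18 arrays with 6 group means (lmFit and eBayes, 12 residual degrees of freedom), with Benjamini-Hochberg adjustment over 9148 genes. The contrasts that carry the text are treated 72 h minus treated 24 h, the same in DMSO, and the difference of those changes; treated against DMSO at each time is context. Fold bounds set the mean of a group not above background to log2 4 and use the measured mean of the other group.

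The members and lists were chosen with earlier results of these data known. Named genes are the 12 largest changes in each direction among called genes whose times do not overlap, 5 in each direction by the difference of changes, 5 in each direction with opposite changes in the 2 treatments (genes without a curated name passed over), the 4 of smallest p per list and a set of stress, cycle and lipid genes, besides list members named after their values were seen. Hmgcs1, Gapdh, Havcr1 and Lcn2 of that set were among those not tested. Same-numbered arrays of treated 72 h and 24 h did not deviate together (r of -0.18 to 0.040), so no pairing was used. The fit was tested on simulated data. Alternatives covered scaling, filters, probe set choice, variance model, array weights and each array left out.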

Additional observations from a re-analysis of the deposited data

Results flagged for a closer look

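The change over time differed between CHL and DMSO cultures in 5273 of 9148 genes by the limma test of the difference itself. The 5 genes with the most positive difference of changes (CHL minus DMSO, log2) were Ropn1l at 6.23, Pimreg at 5.56, Aldoc at 5.30, Rnf157 at 5.12 and Cdkn3 at 4.56. The fitted difference was -5.89 for Hist4h4, -5.19 for Sdcbp2, -4.98 for Ppfibp2, -4.89 for Ccl2 and -4.84 for Hspa1a. These 5 were not above background in either DMSO group, and Hspa1a alone of them was above it in CHL at 72 h, so the fitted values rest in part on readings below background and have no order. The fall in CHL cultures was at least 18.6-fold for Hist4h4, 12.5-fold for Sdcbp2, 10.0-fold for Ppfibp2 and 12.4-fold for Ccl2, and 29.3-fold for Hspa1a. Genes with opposite called changes in the 2 treatments included Zc3h6 at 4.46, Inhba at -4.72, Hspa4 at -4.39, Abhd11 at -3.48 and Clic2 at -3.22. The value of Inhba rests on 1 probe set, since the second changed by -1.44 in CHL and by -0.36 in DMSO and gave a difference of -1.08. Inhba in CHL at 72 h and in DMSO at 24 h, and Clic2 in DMSO at 24 h, were not above background. Hspa4, which encodes a member of the HSP110 family, changed by -2.55 in CHL cultures and by 1.84 in DMSO cultures.

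Probe sets without 1 gene symbol lay outside the comparison. Of 3946 that passed the filter, 2451 (62.1%) passed the test of CHL at 72 h against CHL at 24 h, with 1549 higher and 902 lower, and 789 higher and 388 lower by at least 2-fold. Their transcripts are unnamed here.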

How the results depend on the processing

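The counts kept within 1.5 times under quantile normalization, median centring, a filter at log2 6, no filter, other probe set choices, a trended robust variance, array weights, a fit on the compared groups only and the replicate block (3596 higher and 3029 lower in CHL at 72 h; 2517 and 2684 for the difference of changes). No pairing came from the numbers, since 4 of 18 arrays matched their own number best. Only scaling to the poly-A controls moved them: to 2119 higher and 806 lower in CHL at 72 h, 1217 and 209 for the difference of changes, 1337 called in DMSO and 3561 for CHL against DMSO at 72 h, with the median of all genes at 0.24 in place of 0.057. Those controls spanned 9.17 to 10.51 among the DMSO arrays at 24 h, and that spread enters the scaled values. Leaving out each array in turn gave 3375 to 3664 higher and 2826 to 3102 lower in CHL, and 2378 to 2625 and 2470 to 2779 for the difference of changes. DMSO calls spanned 4968 to 5665, and CHL against DMSO 6039 to 6537 at 24 h and 5428 to 5988 at 72 h.

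Some log2 values turned sign, and where no construction shows it the cause was not tested. Reading another probe set gave, as the second probe set, Ddb2 -0.69, Elovl5 -1.21, Scd2 -0.76, Tjp1 -1.96, Atp7a -0.50, Slc31a1 -1.08, Bcl2l11 -0.68 and Cdkn1a -1.50. The probe set of largest variance gave the same for Elovl5, Scd2, Tjp1, Atp7a and Cdkn1a and -1.24 for Slc31a1. Leaving out shared probe set types gave the same for Ddb2 and Scd2. Scd, at background in both CHL groups, was -0.017 with median centring, and Cflar 0.046 with no filter, which admits another probe set. List medians near 0 also turned. With poly-A scaling, fatty acid synthesis was 0.15, oxidative phosphorylation 0.12, chemokines 0.070 and metal genes 0.082. Median centring gave -0.0095 for endoplasmic reticulum stress and -0.042 for junctions. No filter gave 0.023 for fatty acid synthesis, 0.011 for chemokines and 0.0043 for apoptosis, and the filter at log2 6 gave 0.0021 for metal genes. The largest-variance probe set gave -0.19 for endoplasmic reticulum stress, -0.11 for p53 targets (also without shared types), -0.12 for mechanical stress and -0.29 for junctions. Junctions were -0.070 with background members at their bound and, leaving out each array in turn, -0.12 to 0.045, and fatty acid synthesis was -0.078 to 0.0041, positive without CHL replicate 1 at 72 h. Signal near background limits the low genes, whose folds are bounds.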
